A study of Mus musculus with 24 samples.

Results

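Club cells are the secretory cells that line the small airways of the mouse lung. The 9 genes described here are secretoglobins and xenobiotic enzymes associated with these cells, though several are also found in other lung cells. They comprise the secretoglobins Scgb1a1 and Scgb3a2 and the cytochromes P450 Cyp2f2, Cyp4b1, Cyp2a5 and Cyp2s1. The others are the flavin monooxygenase Fmo2, the glutathione transferase Gsta4 and the methyltransferase Inmt. All 9 were chosen by symbol, and each symbol matched 1 row among the 23420 genes of every table. Across the 36 combinations of gene and comparison, the log2 fold change of mutant over control was above 0 in 35, with folds of the means of up to 9.6, and the exception was Scgb3a2 in P2 Ror2 mutants. Only 1 of the 36 passed the test across all genes in fits that did not pair lungs (Fmo2 at P5 in Vangl2 mutants). An unadjusted limma p under 0.05 was seen in 31, as in 18.4% to 22.5% of all genes tested in each comparison. In P5 Vangl2, replicate numbers were taken from the data to pair the lungs. With the number as a block there, 7 of the 9 genes passed, among 1558 genes called.

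Secretoglobins are small secreted proteins of the airway lining fluid, and Scgb1a1 (also known as CC10) is the product by which club cells are usually recognised. Club cells are also the main site of xenobiotic metabolism in the airway. Their smooth endoplasmic reticulum carries P450 and flavin-containing monooxygenases, which oxidise inhaled compounds (phase I), and conjugating enzymes such as glutathione transferases and methyltransferases then make the products less reactive or easier to excrete (phase II). Cyp2f2 is the enzyme that activates naphthalene, the compound used experimentally to kill club cells. Several of the enzymes are not restricted to club cells: Fmo2, Cyp4b1 and Inmt are also found in other cells of the lung.

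The libraries came from the left lung lobe of mice at postnatal day 2 (P2) and postnatal day 5 (P5), in 8 groups of 3 lungs. The mutants were Sox9Cre; Vangl2f/f and Sox9Cre; Ror2f/f, which lack a planar cell polarity component or a Wnt5a receptor in cells that have expressed Sox9Cre, a driver active in distal lung epithelium. Each mutant group had its own control group of the same age, labelled WT (titled Control(Vangl1/2) or Control(Ror2)). Every lobe was sequenced whole, so a value mixes airway and alveolar epithelium with mesenchyme, vessels and blood, and fewer cells of a type cannot be told apart from less RNA per cell. The genotype entries of the P2 Ror2 mutants and the P5 Vangl2 mutants name the other gene, and the titles were followed. Replicates carry no label of litter or of sex, and the p-values measure the spread between these lungs.

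Values are the reads counted on a gene divided by a size factor for the lung, called normalized counts. In the 20 other lungs whose whole reads could be recovered, between 16178031 and 21546673 reads fell on genes. Control replicate 1 of the P5 Ror2 comparison had 13823693 reads and none on chromosomes 6, 7, 8, 9 and X, so that lung was treated as missing for Cyp2f2, Cyp2a5, Cyp2s1, Gsta4 and Inmt, which then rest on 2 controls. The Vangl2 gene itself had normalized counts of 369, 314 and 292 in P5 controls and 169.5, 148 and 166 in P5 Vangl2 mutants (adjusted p = 0.0604, limma). At P2 its counts were 249, 302 and 281 against 241, 224 and 173. Ror2 counts overlapped between arms in both Ror2 comparisons, with 451, 581 and 519.8 against 479, 349 and 366 at P2 and 526, 368 and 597 against 362, 439.7 and 521 at P5, so that this gene is a weak check of those labels in whole lobes. In the P5 Vangl2 comparison, whose mutant genotype entries name Ror2, the Ror2 counts were 611, 478 and 487 in controls and 541, 351 and 273 in mutants, with overlap and a fold of the means of 0.739, against 0.769 and 0.887 in the Ror2 comparisons at P2 and P5. In the P2 Ror2 comparison, whose mutant genotype entries name Vangl2, the Vangl2 counts were 270, 291 and 245 in controls and 208, 251 and 236 in mutants. They overlapped, with a fold of the means of 0.863, against 0.768 in the P2 Vangl2 comparison.

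The genes are scattered over the genome, with 3 of the P450 genes on chromosome 7. In the GENCODE M21 annotation (mm10), Scgb1a1 (ENSMUSG00000024653) lies at chr19:9083636-9087958 on the minus strand, and Scgb3a2 (ENSMUSG00000038791) lies on chromosome 18. Cyp2s1 (chr7:25802475-25816913, minus strand), Cyp2a5 (chr7:26835305-26843548, plus strand) and Cyp2f2 (chr7:27119909-27133660, plus strand) share a stretch of chromosome 7 that holds the Cyp2 cluster. Cyp4b1 lies at chr4:115624725-115647723, Fmo2 at chr1:162874317-162898726 and Inmt at chr6:55170626-55175043, all on the minus strand, and Gsta4 at chr9:78182774-78209349 on the plus strand. Cyp2a5 is the gene whose reads are least certain to be its own, because its longest transcript is 98.2% identical to Cyp2a4 over 1739 bases. Cyp2a4 had at most 4.2 normalized counts in any lung, while Cyp2a5 reached 125. Only the highest-scoring matches of each gene were kept, so further coding relatives of Cyp2a5 and Cyp4b1 may be missing from them. Among the matches kept, no other coding gene was closer than 72.4% identity (Inmt and Nnmt, over 416 bases). Pseudogenes were closer to Cyp4b1 (96.4% over 333 bases) and to Cyp2a5 (88.2% over 1482 bases). Cyp2s1 shares 260 bases with an overlapping noncoding gene, and Cyp2f2 shares 142 bases with an antisense gene.

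Promoter sequence was held in the RefSeq table (GRCm38.p6) for 6 of the 9 genes. The windows of Inmt and Fmo2, which had the highest log2 fold changes at P2 among the 9 genes in Vangl2 and in Ror2 mutants, and of Cyp2f2, whose level followed that of Scgb1a1 most closely, are shown here from 250 bases before the RefSeq start up to the first annotated exon. For Fmo2 the whole window of the first RefSeq start is shown, which ends before the first annotated exon. Capitals mark the TATA box letters TATAAA in the Inmt window, which the other 2 windows shown lack.

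Inmt, chr6:55175044-55175240, minus strand: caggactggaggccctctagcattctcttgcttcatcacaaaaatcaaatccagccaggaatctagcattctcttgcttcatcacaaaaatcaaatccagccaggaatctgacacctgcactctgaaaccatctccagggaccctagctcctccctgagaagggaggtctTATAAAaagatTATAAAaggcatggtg

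Fmo2, chr1:162898759-162899008, minus strand: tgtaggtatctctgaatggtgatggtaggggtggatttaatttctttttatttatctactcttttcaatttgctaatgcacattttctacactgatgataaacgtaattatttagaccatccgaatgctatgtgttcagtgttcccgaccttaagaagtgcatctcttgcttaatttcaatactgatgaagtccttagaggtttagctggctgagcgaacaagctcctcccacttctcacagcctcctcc

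Cyp2f2, chr7:27119705-27119908, plus strand: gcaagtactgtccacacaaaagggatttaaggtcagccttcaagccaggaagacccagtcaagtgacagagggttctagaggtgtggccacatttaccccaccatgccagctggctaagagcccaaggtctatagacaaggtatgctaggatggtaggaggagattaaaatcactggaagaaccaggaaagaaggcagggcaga

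Each window of 250 bases was searched on both strands for the letters of factors that act in airway epithelium: TGTTTAC and TATTTAC (forkhead), CTCAAG (Nkx2-1), TTGCAAT and TTGCAAC (C/EBP), TGACTCA (AP-1) and CACGTG (E-box). Among all 32851 windows of the table these occurred in 3.17%, 2.73%, 13.3%, 1.96%, 1.79%, 4.46% and 6.02%. In the windows of the 6 genes there was 1 match, the forkhead letters TGTTTAC on the opposite strand, 28 bases before the second RefSeq start of Fmo2. The match lies inside the annotated Fmo2 gene (chr1:162874317-162898726), not upstream of it. Its surroundings at chr1:162898504-162898532 (minus strand) read gccaggactttGTAAACAcgtttacaatg, with the match in capitals. TATAAA, added after the windows had been read, occurred at 80 and 69 bases before the RefSeq start of Inmt and 29 bases before that of Cyp2a5, and in 12.4% of all windows. The Cyp2a5 match also lies inside the annotated gene (chr7:26835305-26843548), not upstream of it. None of the letters was shared by all 6 windows.

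Levels were compared between genes as RPM (reads scaled to a common total of reads on genes) per kilobase of exon. In the 6 P2 controls, Scgb1a1 stood at 10721 ± 2139 (mean ± SD), followed by Scgb3a2 at 1517 ± 702 and Cyp2f2 at 401 ± 51.8. Cyp4b1 (39.7 ± 7.31), Fmo2 (38.3 ± 15.3) and Gsta4 (36.1 ± 9.80) came next and did not differ beyond their spread. Cyp2s1 (19.8 ± 2.96) and Inmt (17.3 ± 12.4) also overlapped, and Cyp2a5 was lowest at 0.613 ± 0.228. The high levels of Scgb1a1, Scgb3a2 and Cyp2f2 show that airway secretory epithelium was present in every lobe. Taken as one sum, the 9 genes accounted for 0.637% to 1.02% of a lung's reads in P2 controls (median 0.758%) and for 0.848% to 1.49% in P2 mutants (median 1.17%).

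**Figure D1:**
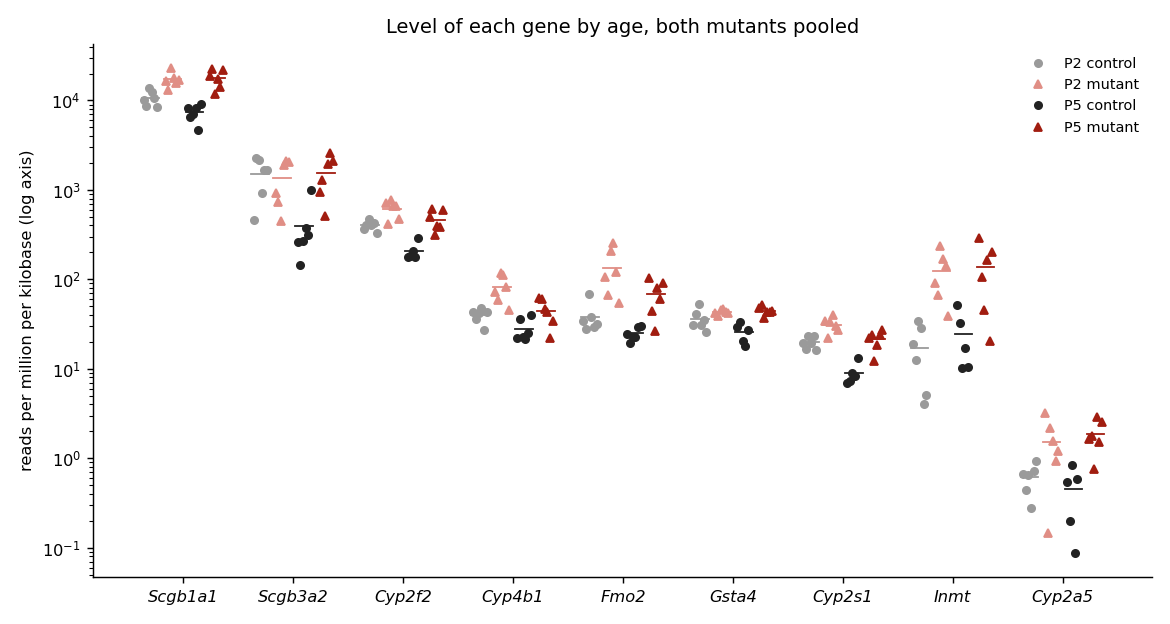
Level of each gene in every lung, in RPM per kilobase of exon (log axis), for P2 and P5 controls (circles) and mutants (triangles) of both genotypes, with lines at the means. Scgb1a1 has the highest level and Cyp2a5 the lowest, and the mean of the P5 controls is the lowest of the 4 means for 8 of the 9 genes.

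Age and table cannot be told apart in these data, since the ages were deposited in different tables, and the levels by age are therefore a description. In 8 of the 9 genes the mean level was lower in P5 controls than in P2 controls, the exception being Inmt. Scgb1a1 ranged from 4061 to 6641 RPM in the 6 P2 controls and from 2228 to 4335 in the 6 P5 controls. For P5 Ror2 control replicate 1 the total of reads was estimated. Its reads on genes outside chromosomes 5 to 9 and X were taken as 67.02% of that total, the mean share in the other 5 lungs. The ranges of Cyp2f2 (660.5 to 962 at P2, 359 to 580.4 in 5 P5 controls) and Cyp2s1 (81.1 to 115 and 34.0 to 65.7) did not overlap, and those of the other 7 genes did. Scgb1a1 in P5 mutants ranged from 5619 to 10643 RPM, against 6209 to 10914 in P2 mutants, and for all 9 genes the mean of P5 mutants was above that of P2 controls. In P5 controls the 9 genes together took 0.317% to 0.617% of reads (5 lungs, median 0.429%), and in P5 mutants 0.714% to 1.46% (6 lungs, median 1.20%).

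Each mutant was then compared with its own controls by limma on log2(normalized count + 1), a scale that understates the change of low genes such as Cyp2a5. All 9 genes passed the filter on low values in each comparison. In P2 Vangl2 mutants all 9 were higher, every mutant lung lay above every control lung for 9 of 9, and none passed the adjusted threshold of 0.05 (adjusted p 0.0533 for Inmt to 0.205 for Cyp2a5). All 9 had an unadjusted p under 0.05, beside 22.5% of all genes. On recovered reads, DESeq2 called 7 of the 9 among 1998 genes and edgeR called none of them among 604. Among all 17448 genes tested there, 3.59% passed in either direction, 1.5% passed as higher in mutants, and 14.6% had every mutant lung above every control lung. The median log2 fold change was 0.79 for the 9 genes and 0.00 for all genes. The 9 genes partly moved together from lung to lung, as described further on, so they are not 9 independent measurements.

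P5 Vangl2 mutants had higher means for all 9 genes, with a median log2 fold change of 1.21 against 0.00 for all 17410 genes. Fmo2 rose (adjusted p = 0.0221, limma) and 8 of the 9 genes had an unadjusted p under 0.05, beside 18.8% of all genes. For 8 of 9 every mutant lung was above every control lung, beside 13.2% of all genes. In this comparison 0.563% of genes passed in either direction and 0.534% as higher in mutants. Same-numbered lungs of both arms shared their deviations here. A fit that took the number as a block called 7 of the 9 genes (adjusted p 0.00967 for Fmo2 to 0.0458 for Scgb1a1), all but Inmt (0.0536) and Cyp4b1 (0.839), with 1558 genes called in all. All of these lungs were female by Xist except mutant replicate 1, so a sex covariate does no more than set that lung aside.

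In P2 Ror2 mutants 8 of the 9 genes had higher means (median log2 fold change 0.72, all genes -0.01), and 6 had an unadjusted p under 0.05, beside 19.3% of all genes. None passed in limma, beside 0 of all 17541 genes tested (0% in either direction and 0% as higher, with 3380 genes at an unadjusted p under 0.05). On recovered reads, DESeq2 called 788 genes with Cyp4b1 and Inmt among them, and edgeR called 0. Every mutant lung was above every control lung for 2 genes, Cyp4b1 and Inmt, beside 13.4% of all genes, so by this measure the share was close to the background. In P5 Ror2 mutants all 9 were higher (median 1.29, all genes 0.00), 8 had an unadjusted p under 0.05 (beside 18.4% of all genes) and none passed. There, 0.128% of 17179 genes passed in either direction and 0.064% as higher. No overlap was seen for 8 of 9, all but Inmt, beside 13.7% of genes with 3 control lungs and 19.3% of genes with 2.

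**Figure D2:**
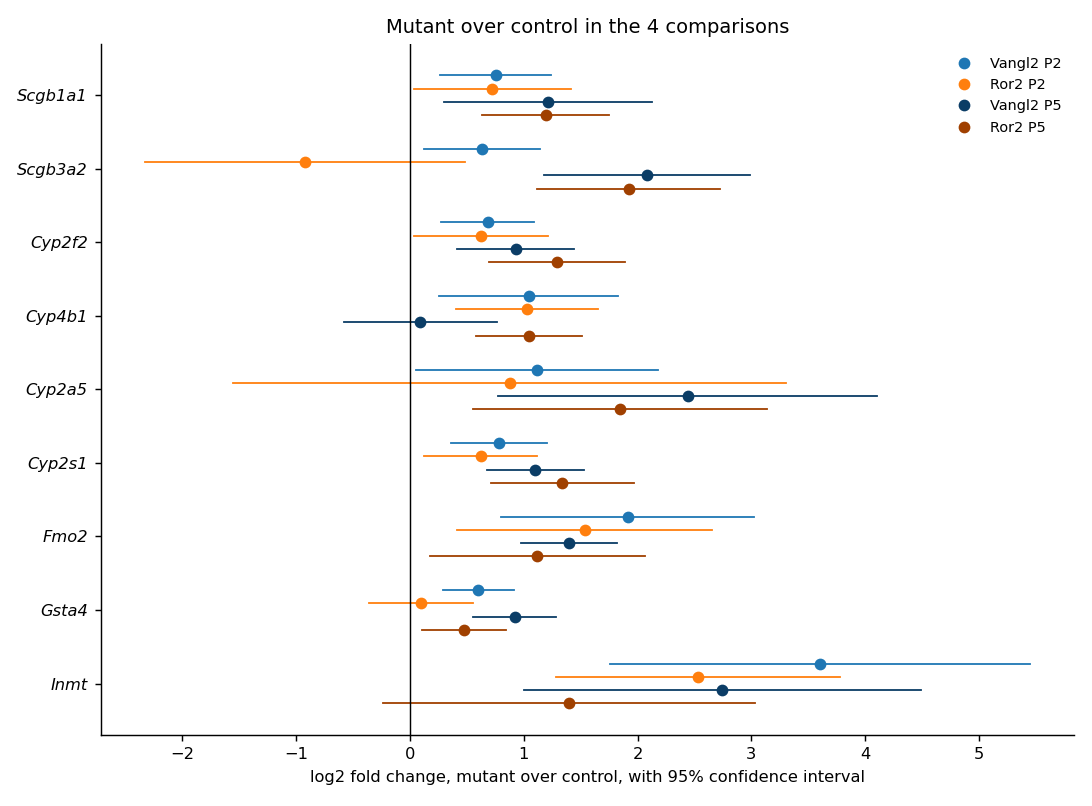
Log2 fold change of each gene, mutant over control, with its 95% confidence interval from limma, in the 4 comparisons (3 mutant and 3 control lungs each, 2 controls for 5 genes in P5 Ror2). Points lie to the right of 0 in 35 of 36 cases, Scgb3a2 in P2 Ror2 mutants lies at -0.92, and many intervals are wide.

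Scgb1a1, the main secreted product of club cells, was the most abundant of the 9. Its normalized counts in the P2 Vangl2 comparison were 119565, 100984 and 80776 in controls and 180640.0, 152066 and 169565 in mutants. At P5 they were 77898, 43078 and 79459.5 against 157813, 121691 and 173241. All mutant lungs were above all controls in both comparisons, by 1.67-fold of the means at P2 (log2 fold change 0.75 ± 0.21 SE, adjusted p = 0.0931, limma) and 2.26-fold at P5 (1.21 ± 0.40, adjusted p = 0.169, and 0.0458 with the replicate block). The Ror2 comparisons gave 89276, 75170.0 and 123097 in P2 controls and 149093, 115162 and 216622 in mutants, where control replicate 3 was above mutant replicate 2. At P5 they gave 73648, 61371 and 65149 against 165676, 198724 and 106516, without overlap. The fold of the means was 1.67 at P2 (log2 0.72 ± 0.29, adjusted p = 0.246, limma) and 2.35 at P5 (1.19 ± 0.24, adjusted p = 0.107). Exact two-sided permutation tests of single genes could reach no p below 0.1 with 3 lungs against 3, or 0.2 with 3 against 2, and returned these smallest values for every gene without overlap.

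**Figure D3:**
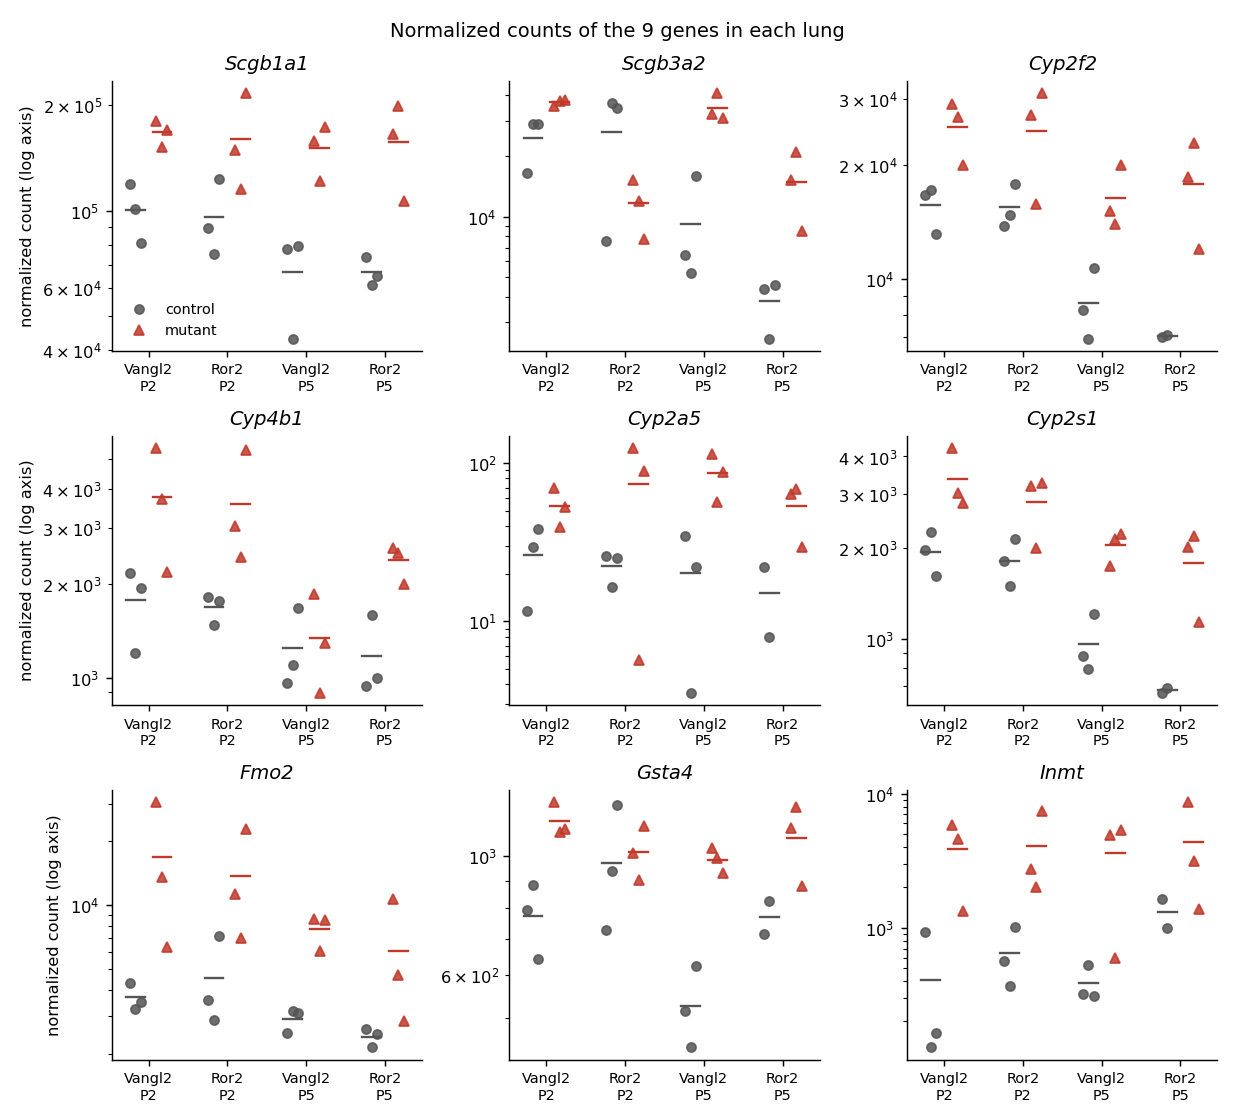
Normalized count of each of the 9 genes (log axis) in every control lung (circles) and mutant lung (triangles) of the 4 comparisons, with lines at the means. Mutant lungs lie above all controls in 27 of 36 cases, and some groups, such as the P2 Vangl2 mutants for Fmo2, spread widely. Of all genes with 3 controls, 13.2% to 14.6% lay so in each comparison, and 19.3% of genes with 2 controls in P5 Ror2. In P2 Ror2 the share of the 9 genes was close to that of all genes.

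Scgb3a2, a secretoglobin that is also found in larger airways, was higher in mutants in 3 comparisons and lower in the fourth. In P2 Vangl2 mutants it stood at 35387, 37587 and 38165 against 16517, 28723 and 28854 in controls, 1.5-fold higher (log2 0.63 ± 0.22, adjusted p = 0.151, limma). In P2 Ror2 mutants it stood lower, with 15207, 11986 and 7751 against 7569, 36635 and 34781 (log2 -0.92 ± 0.60, adjusted p = 0.41, limma). Control replicate 1 lay below all 3 mutants there and the other 2 controls above them, and without control replicate 1 the log2 fold change was -1.67. At P5 the mutants were higher in both comparisons without overlap. P5 Vangl2 counts were 6445, 5271 and 15983 in controls and 32328, 40991 and 31036 in mutants, 3.77-fold higher (log2 2.08 ± 0.39, adjusted p = 0.0652, limma, and 0.0217 with the replicate block). P5 Ror2 counts were 4386, 2488 and 4591 against 15160.3, 21054 and 8511, 3.90-fold higher (log2 1.92 ± 0.35, adjusted p = 0.0878, limma).

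Scgb3a1 and Muc5b, a secretoglobin and a mucin of large airways, moved with Scgb3a2 from lung to lung, and both were picked for display after their values had been seen. In the P2 Ror2 comparison Scgb3a1 had 34.0 normalized counts in control replicate 1 and 10596 and 13839 in the other controls, against 222, 351 and 179 in mutants. Muc5b had 14.4, 4395 and 4502 in the same controls and 29.3, 35.1 and 95.6 in mutants. In the P2 Vangl2 comparison control replicate 1 was again low, with 112 against 4712 and 4337 for Scgb3a1, while the mutants had 13225, 14443 and 4806. After subtraction of the group means, Pearson's r between Scgb3a2 and Scgb3a1 was 0.912 over 24 lungs (Spearman's rho 0.855), compared with 0.289 between Scgb1a1 and Scgb3a1. How much large airway each lobe held was not recorded in the labels, and its part in the Scgb3a2 values was not tested. Other airway genes followed this only in part. Trp63, the basal cell transcription factor, was also lowest in control replicate 1 of the P2 Ror2 controls, at 9.28 against 33.1 and 55.9 normalized counts. In the P2 Vangl2 controls it was not, with 10.5 in control replicate 1 against 9.48 and 12.5. The basal cell gene Krt5 was at 0 in control replicate 1 of both P2 comparisons and above 0 in the other P2 controls. The cartilage gene Col2a1 ran from 55.1 to 75.5 in the P2 Ror2 controls, with control replicate 1 between the others.

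**Figure D4:**
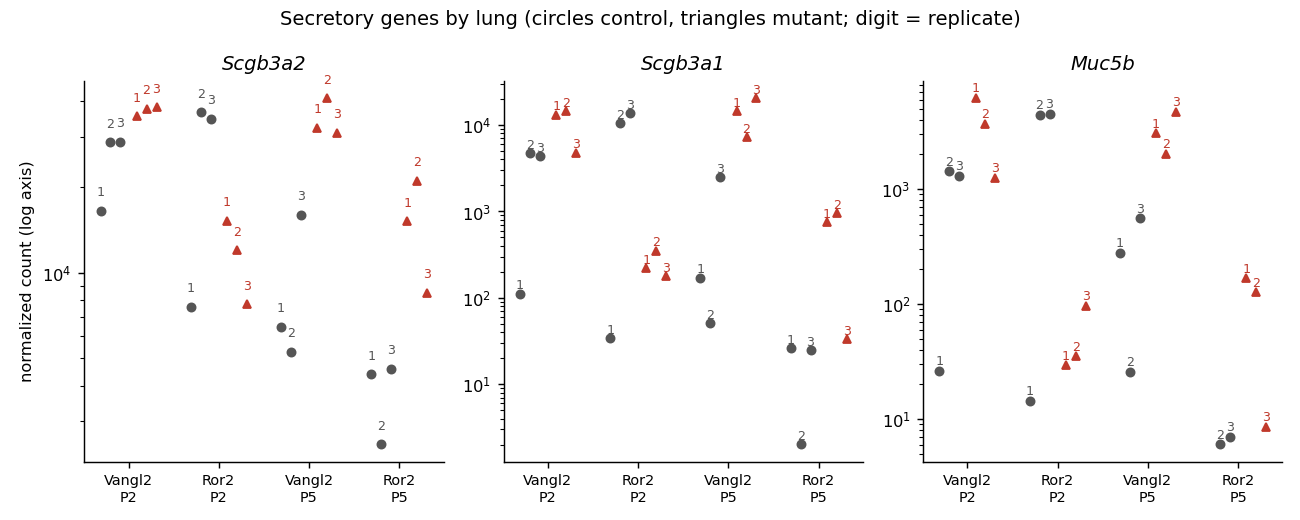
Normalized counts (log axis) of Scgb3a2, Scgb3a1 and Muc5b in each lung, circles for controls and triangles for mutants, with the replicate number beside each point (Muc5b has no value for control 1 of P5 Ror2). In P2 Ror2, controls 2 and 3 stand above all mutants and control 1 below them for Scgb3a1 and Muc5b.

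Cyp2f2 was the most abundant of the 4 P450 genes. Its counts were 16712, 17229.6 and 13139 in P2 Vangl2 controls and 28954, 26866 and 20054 in mutants, and 8253, 6939 and 10639.5 against 15125, 13944 and 19968 at P5. Neither comparison showed overlap, and the folds of the means were 1.61 (log2 0.68 ± 0.18, adjusted p = 0.0751, limma) and 1.90 (0.93 ± 0.22, adjusted p = 0.103, and 0.0136 with the replicate block at P5). In the Ror2 comparisons Cyp2f2 stood at 13790.1, 14773 and 17837 against 27176, 15758 and 30994 at P2, where mutant replicate 2 fell among the controls. At P5 it stood at 7009 and 7088 against 18579, 22931 and 12006. The log2 fold changes were 0.62 ± 0.25 (adjusted p = 0.245, limma) and 1.29 ± 0.25 (adjusted p = 0.113).

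Cyp2s1, a P450 of airway and other surface epithelia, had 1963, 2249 and 1614 normalized counts in P2 Vangl2 controls and 4274, 3034 and 2816 in mutants. At P5 the counts were 878, 793 and 1204 against 1745, 2139 and 2224. The groups were separate at both ages, 1.74-fold apart at P2 (log2 0.79 ± 0.18, adjusted p = 0.0585, limma) and 2.12-fold at P5 (1.10 ± 0.18, adjusted p = 0.0534, and 0.00979 with the replicate block). P2 Ror2 counts were 1801, 1500.0 and 2130.4 against 3192, 2002 and 3278, with mutant replicate 2 below control replicate 3. P5 Ror2 counts were 663 and 689 against 2009.6, 2185 and 1138. Log2 fold changes were 0.62 ± 0.21 (adjusted p = 0.215, limma) and 1.34 ± 0.26 (adjusted p = 0.115).

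Cyp4b1, a P450 that hydroxylates fatty acids and activates several lung toxicants, had folds of the means of 2.14 in P2 Vangl2, 2.15 in P2 Ror2, 2.02 in P5 Ror2 and 1.08 in P5 Vangl2 mutants. Counts in P2 Vangl2 controls were 2169, 1201 and 1932, against 5431, 3720.4 and 2174 in mutants. The lowest mutant and the highest control were nearly equal there (log2 1.04 ± 0.34, adjusted p = 0.131, limma). P2 Ror2 counts were 1810.0, 1471 and 1753 against 3046, 2431 and 5325 (log2 1.03 ± 0.27, adjusted p = 0.203, limma). At P5 the Ror2 mutants had 2604, 2509 and 1999 against 938, 1592 and 997 (log2 1.04 ± 0.20, adjusted p = 0.103, limma). P5 Vangl2 mutants had 1852, 894 and 1288 against 964, 1096 and 1671, and the groups overlapped throughout (log2 0.09 ± 0.29, 95% confidence interval -0.58 to 0.77, adjusted p = 0.901, limma).

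Cyp2a5, which oxidises nicotine and coumarin in the mouse, was the lowest of the 9 genes. Its P2 Vangl2 counts were 11.6, 29.4 and 38.3 in controls and 69.3, 39.3 and 53.0 in mutants, and its P5 counts 34.7, 3.53 and 22.2 against 114, 57.1 and 88.5. Mutants were above controls in each, 2.04-fold at P2 (log2 1.12 ± 0.46, adjusted p = 0.205, limma) and 4.29-fold at P5 (2.44 ± 0.72, adjusted p = 0.142, and 0.0267 with the replicate block). In P2 Ror2 mutants 2 lungs were high (125 and 89.3) and mutant replicate 2 was at 5.69, below the controls at 25.8, 16.5 and 25.2 (log2 0.88 ± 1.03, adjusted p = 0.651, limma). The value was 2.21 without mutant replicate 2 (adjusted p = 0.0375) and 0.09 without mutant replicate 1. At P5 in Vangl2 mutants it was 1.55 without control replicate 2 and 3.04 without control replicate 1. P5 Ror2 mutants had 63.4, 68.9 and 29.6 against 22.1 and 7.94 (log2 1.85 ± 0.54, adjusted p = 0.178, limma), with 2.53 and 1.16 without control replicate 2 or 3.

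Fmo2, the flavin-containing monooxygenase that predominates in lung, was the only one of the 9 to pass the adjusted threshold in limma as reported. Other members passed only in alternative fits, such as DESeq2 at P2, the fit of all 24 lungs or the replicate block. In P5 Vangl2 mutants the Fmo2 counts were 8594, 6119.9 and 8535, against 2501, 3169 and 3118 in controls. The gap between the groups was wide compared with the spread within them, and Fmo2 rose 2.65-fold (log2 1.39 ± 0.18, 95% confidence interval 0.97 to 1.81, adjusted p = 0.0221, limma). The call was lost without control replicate 1, 2 or 3 (adjusted p = 0.0714, 0.0943 and 0.0656, limma), without mutant replicate 1 or 3 (0.0697 and 0.0907), and in 1 fit of all 24 lungs (0.0749), while the log2 fold change stayed between 1.28 and 1.56 with any 1 lung left out. The fit with sex as a covariate gave the same estimate as the fit without mutant replicate 1 (1.31, adjusted p = 0.0709). Over all 15 alternatives the adjusted p ran from 0.00967 to 0.0943. At P2 the Vangl2 mutants had 30439.5, 13632 and 6347 against 4292, 3269 and 3506, a fold of 4.56 in the means that came mainly from mutant replicate 1 (log2 1.91 ± 0.48, adjusted p = 0.0719, limma). P2 Ror2 counts were 3595, 2877 and 7155 against 11307, 6981 and 22810.3, with control replicate 3 just above mutant replicate 2 (log2 1.53 ± 0.48, adjusted p = 0.206, limma). P5 Ror2 counts were 2608, 2146 and 2482 against 10669, 4690.2 and 2843 (log2 1.12 ± 0.41, adjusted p = 0.219, limma). In that comparison the mutants spread from near the controls to far above them.

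Gsta4, the glutathione transferase that detoxifies the lipid peroxidation product 4-hydroxynonenal, had lower folds of the means than Cyp2s1 in each comparison. P2 Vangl2 counts were 793, 884 and 644 in controls and 1262, 1109 and 1127 in mutants, 1.51-fold apart (log2 0.60 ± 0.14, adjusted p = 0.0548, limma). P5 Vangl2 counts were 515, 439.6 and 625 against 1036, 992 and 930.2, 1.87-fold apart (log2 0.92 ± 0.16, adjusted p = 0.0575, limma, and 0.0185 with the replicate block). Both sets of groups were separate and tight. The P2 Ror2 groups overlapped, with 729, 937 and 1249 against 1015, 905 and 1138 (log2 0.10 ± 0.19, 95% confidence interval -0.36 to 0.55, adjusted p = 0.801, limma). P5 Ror2 counts were 716 and 826 against 1129, 1237 and 879.8 (log2 0.48 ± 0.15, adjusted p = 0.195, limma).

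Inmt, which transfers methyl groups to indolamines and other amines, had the highest fold of the means in 3 of the 4 comparisons and a wide spread between lungs. Control counts in the P2 Vangl2 comparison were 927, 128 and 163, and mutant counts 5799.5, 4565 and 1328. The fold of the means was 9.60 (log2 3.60 ± 0.80, 95% confidence interval 1.76 to 5.45, adjusted p = 0.0533, limma). With 1 lung left out the log2 fold change ran from 3.07 to 4.49, and it passed without control replicate 1 (4.49, adjusted p = 0.0389) and without mutant replicate 3 (4.25, adjusted p = 0.0175). At P5 the Vangl2 mutants had 4952, 595 and 5344 against 322, 523 and 308, so that mutant replicate 2 was only just above the highest control (log2 2.75 ± 0.76, adjusted p = 0.126, limma). Without that lung the log2 fold change was 3.78 (adjusted p = 0.00914). P2 Ror2 counts were 567, 368 and 1017 against 2763, 2007 and 7429, without overlap (log2 2.53 ± 0.53, adjusted p = 0.203, limma). P5 Ror2 counts were 1628 and 994 against 8630.4, 3162 and 1384, where mutant replicate 3 fell between the controls (log2 1.40 ± 0.68, adjusted p = 0.326, limma), with 2.04 without mutant replicate 3 and 0.72 without mutant replicate 1.

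Whether the response differed between ages or genotypes was asked for each gene with limma over the 12 lungs of a pair of comparisons, 36 differences in all. None passed the adjusted threshold, and 4 had an unadjusted p under 0.05, of which 3 concerned Scgb3a2. Among all genes tested, 0% passed for the difference between ages in Vangl2 mutants, 0% for that in Ror2 mutants, 0% for Ror2 minus Vangl2 at P2 and 0.0118% at P5. Without adjustment, 1442 of 17068, 1616 of 16990, 788 of 17137 and 798 of 16887 genes had a p under 0.05. Scgb1a1 differed between Ror2 and Vangl2 mutants by -0.03 on the log2 scale at P2 (95% confidence interval -0.83 to 0.77) and by -0.02 at P5 (-1.05 to 1.00), intervals that leave room for sizeable differences either way. For Cyp2f2 the differences were -0.06 (-0.78 to 0.67) and 0.36 (-0.44 to 1.16). From P2 to P5 the Scgb1a1 response differed by 0.46 (-0.50 to 1.43) in Vangl2 mutants and by 0.47 (-0.41 to 1.35) in Ror2 mutants.

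Lungs of the same group also differed from each other, and the 9 genes partly moved together in that spread. Over the 36 pairs of genes, Pearson's r of the log2 deviations from the group mean ran from -0.229 to 0.889 with a median of 0.525, and 34 pairs were above 0. These are descriptions over 24 lungs, or 23 where a lung was missing, that share library and depth within each point. Cyp2f2 and Cyp2s1 formed the closest pair (r = 0.889, rho 0.884, 23 lungs), followed by Scgb1a1 and Cyp2f2 (r = 0.815, rho 0.794). Fmo2, Inmt and Cyp4b1, the 3 genes known from other lung cells as well, were also close to each other: r was 0.751 for Fmo2 with Inmt, 0.726 for Cyp4b1 with Inmt and 0.681 for Cyp4b1 with Fmo2. Scgb3a2 stood apart, with r of 0.196 to Scgb1a1 and -0.229 to Inmt, and its closest member was Gsta4 (0.650).

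**Figure D5:**
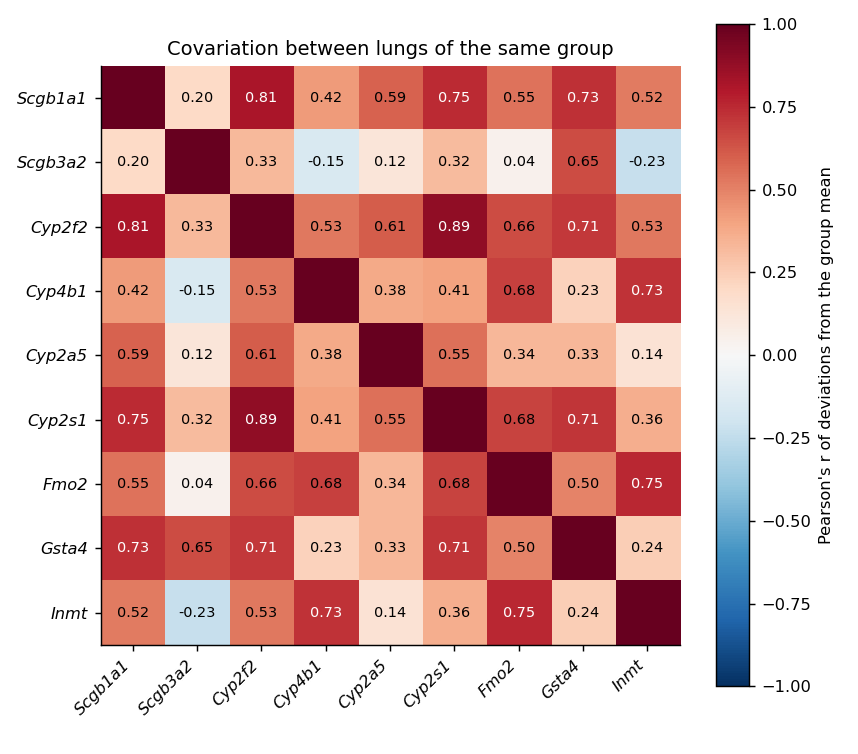
Pearson's r between each pair of the 9 genes for log2(normalized count + 1) after subtraction of the group mean, over 24 lungs (23 for pairs with a gene missing in 1 lung); color runs from -1 (blue) to 1 (red). Cyp2f2 with Cyp2s1 reaches 0.89, Fmo2 with Inmt 0.75, and the row of Scgb3a2 is mostly pale.

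Among 12660 genes with a mean normalized count of at least 50 in each table, the 5 closest to Scgb1a1 in that spread were Gsta3 (r = 0.912, rho 0.896), Cbr2 (0.872, 0.842), Cldn10 (0.868, 0.847), Khk (0.850, 0.868, 23 lungs) and Pip5k1b (0.842, 0.823). Gsta3 is a glutathione transferase, Cbr2 a carbonyl reductase of club cells, Cldn10 a tight junction protein and Khk the enzyme that phosphorylates fructose. Cyp2f2 ranked 9, Cyp2s1 41 and Gsta4 61, whereas Fmo2 ranked 631, Inmt 783, Cyp4b1 1482 and Scgb3a2 3997. Cyp2a5 was under the level required.

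Other genes of club cells and of the same enzyme classes were taken from lists. Of 15 other club cell genes, all tested, 14 had a log2 fold change above 0 in P2 Vangl2, 15 in P5 Vangl2, 9 in P2 Ror2 and 15 in P5 Ror2. Their medians were 0.70, 1.01, 0.21 and 1.12, beside medians of all genes near 0. The calls were Aldh1a1, a retinaldehyde dehydrogenase (log2 0.83, adjusted p = 0.0349, limma), and Gabrp, a GABA receptor subunit (1.19, adjusted p = 0.0326), both in P2 Vangl2 mutants. Cbr2, the most abundant gene of the list, had log2 fold changes of 0.64, 0.93, 0.33 and 0.89 in the same order of comparisons, and the esterase Ces1d had 0.47, 0.66, 0.53 and 0.50.

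Phase I enzymes outside the 9 genes (30 listed, 29 tested) had medians of 0.39, 0.27, 0.41 and 0.49 in P2 Vangl2, P5 Vangl2, P2 Ror2 and P5 Ror2, with 21, 23, 22 and 23 above 0. Calls were Cyp4v3 in P2 Vangl2 (log2 0.76, adjusted p = 0.0362, limma) and Cyp4f18, a P450 of leukotriene breakdown found in neutrophils, in P5 Vangl2 (2.10, adjusted p = 0.0381), and none in the Ror2 comparisons. The abundant members Por, the reductase that supplies electrons to all microsomal P450 enzymes, and Aldh3a2 had log2 fold changes of 0.48, 0.17, 0.09 and 0.21, and of 0.07, -0.10, 0.08 and -0.06. Fmo1 had 0.39, 0.34, 0.61 and 0.53.

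Phase II enzymes (30 listed, 27 to 29 tested) had lower medians, at 0.21, 0.29, -0.03 and 0.14, with 20, 19, 14 and 17 above 0. Gsta3 rose in P2 Vangl2 mutants (log2 0.82, adjusted p = 0.0333, limma), as did the microsomal transferase Mgst1 (0.64, adjusted p = 0.0397), which also rose at P5 (1.24, adjusted p = 0.0148). Gstm1 rose in P5 Ror2 mutants (0.61, adjusted p = 0.0444, limma). Gstm2, of similar abundance, had log2 fold changes of 0.10, -0.48, -0.04 and 0.04. None of the 3 lists had a gene that passed as lower in mutants in any comparison.

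Markers of other cell types moved with the 9 genes in several comparisons, and their part in the results was not tested. The 8 ciliated cell genes measured had median log2 fold changes of 0.60, 1.08, -0.06 and 1.15 in P2 Vangl2, P5 Vangl2, P2 Ror2 and P5 Ror2, and all 8 were above 0 in every comparison but P2 Ror2, where 3 were. Their summed normalized counts ran from 3927 to 7471 in P5 Vangl2 controls and from 9378 to 10895 in mutants. Goblet cell genes had medians of 1.35, 2.65, -0.99 and 0.74, airway basal cell genes 0.68, 1.46, -1.07 and 0.78, and neuroendocrine cell genes 0.62, 1.46, 0.27 and 1.47. In P2 Ror2 mutants, where Scgb3a2 was lower, the goblet and basal medians were the lowest of these. There, 1 of 7 goblet cell genes and 2 of 6 basal cell genes were above 0. The basal cell genes Krt5 and Trp63 were low in that comparison, with control means of 16.4 and 32.8 normalized counts. In the P5 Vangl2 comparison 5 of the 6 basal cell genes were above 0, and Ngfr was at -0.02. Mutant replicate 3 stood apart there for Krt5 and Trp63. It had 667 normalized counts of Krt5 against 27.5 and 10.1 in the other mutants, and 370 of Trp63 against 27.5 and 12.3. That lung also had the highest Scgb1a1 and Cyp2f2 of its group. Without it no member passed, beside 0 of all 17169 genes tested. No member passed without control replicate 1 or 2 or mutant replicate 1 either. Fmo2, the only member called with all lungs, was at 8535 in that lung and 8594 in mutant replicate 1. Krt5, a defining basal cell gene, was at 0 in all 3 P5 Ror2 controls and reached 1.04 normalized counts in mutants.

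The 10 alveolar type II genes had medians of 0.38, 0.46, 0.23 and -0.21 in the same order, and the 10 alveolar type I genes 0.45, 0.23, 0.52 and 0.16. Smooth muscle genes had -0.38, -0.56, -0.23 and -0.19, matrix fibroblast genes -0.02, -0.22, 0.05 and -0.18, endothelial genes -0.04, -0.49, 0.20 and 0.03, mesothelial genes 0.21, 0.60, 0.01 and 0.19 and cartilage genes 0.41, 0.60, -0.14 and -0.04. Among blood cells, neutrophil genes had 1.43, 1.90, -0.37 and 0.38, with 6 of 7 passing as higher in P2 Vangl2 mutants and 4 of 7 at P5, macrophage genes 0.40, 0.89, -0.08 and 0.13, and erythroid genes -1.51, -0.61, -1.90 and -0.37.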

How the data were processed

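The authors deposited 1 table per comparison, each with 6 lungs and 23420 genes. Values are normalized counts, a signal in which the authors divided each lung's reads on a gene by a size factor. The deposited columns of log2 fold change, its standard error, test score and p-value were the authors' own comparisons and were not used. The submitters' processing notes name mm10 and DESeq2; the aligner, the counter and its strand setting are not given in the sources used here. Whole reads were recovered in 21 of 24 lungs (tolerance 0.02 reads). Control replicate 1 of P5 Ror2 was set to missing for 8085 genes on chromosomes 5 to 9 and X, and 27 gene names had turned into dates.

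Genes with at least 1 normalized count in at least 3 lungs were tested with limma 3.58.1 in R 4.3.3 (lmFit, then eBayes using trend) applied to log2(normalized count + 1), with Benjamini-Hochberg adjustment over all genes and a threshold of 0.05. The design had allowed for raw counts, so the test for normalized values was used, and edgeR 4.0.16 and DESeq2 1.42.0 were run as alternatives on reads recovered at P2. The fits were checked on simulated data. Paralogs were searched with BLAST 2.17.0. The 9 genes and the lists of club cell, phase I, phase II and cell type genes were chosen with earlier results of these data known. Named from a list were called genes and the 3 most abundant. Alternatives changed the pseudocount, filter, scaling, samples in the fit, sex, replicate block and tool, and left out each lung in turn.

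Same-numbered control and mutant lungs shared their deviations from the group means in P5 Vangl2 (correlations 0.384, 0.34 and 0.241 over genes), so the numbers were taken to pair the lungs there from the data, not from a label. Counts of 0 and the depth of 13823693 to 21546673 reads limit the precision for low genes such as Cyp2a5.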

Additional observations from a re-analysis of the deposited data

Results flagged for a closer look

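The response of Scgb3a2 differed between ages in both mutants, and between genotypes at P2, at an unadjusted limma p under 0.05. From P2 to P5 its log2 fold change was higher by 1.45 in Vangl2 mutants (95% confidence interval 0.37 to 2.53, adjusted p = 0.577, limma over 12 lungs). In Ror2 mutants it was higher by 2.84 (1.14 to 4.55, adjusted p = 0.453, limma). At P2 it was lower in Ror2 than in Vangl2 mutants, by -1.55 (-3.10 to -0.00, adjusted p = 0.946, limma). At P5 the same difference was -0.16 (-1.44 to 1.11, adjusted p = 0.998, limma). Cyp4b1 at P5 had a log2 fold change higher by 0.95 in Ror2 than in Vangl2 mutants (0.09 to 1.82, adjusted p = 0.991, limma). These 4 of 36 differences were picked by a test of the difference itself, and none held after adjustment over all genes. Among all genes, the same unadjusted threshold was met by 1442 of 17068 (between ages in Vangl2 mutants) and 1616 of 16990 (between ages in Ror2 mutants). Between genotypes it was met by 788 of 17137 at P2 and 798 of 16887 at P5.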

How the results depend on the processing

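Of 576 alternative values of single genes, 509 kept direction and side of the threshold, 56 came to pass it, 7 no longer passed and 4 turned direction. In P2 Vangl2, where 0 of the 9 genes passed, 7 did so with DESeq2, 3 in a fit of all 24 lungs, 4 with the replicate block and 0 to 6 with 1 lung left out (6 without mutant replicate 3, with 2333 genes called in all, and 1 without control replicate 1, with 122, against 626 as reported). In P5 Vangl2, 1 passed, against 2 with at least 10 counts in 3 lungs, 4 scaled to reads on genes, 6 in the fit of 24 lungs, 7 with the replicate block and 0 with sex as a covariate. Leaving out 1 lung gave 0 to 2 there (0 without control 1 or 2 or mutant 1 or 3, with 41, 5, 7 and 0 genes called in all, and 2 without mutant replicate 2, with 54, against 98 as reported). In P2 Ror2, 0 passed, against 2 with DESeq2, 1 with the replicate block and 0 to 5 with 1 lung left out (5 without mutant replicate 2, with 859 genes called in all, against 0). In P5 Ror2, 0 passed, against 2 in the fit of 24 lungs and 0 to 7 with 1 lung left out (7 without mutant replicate 3, with 830 genes called in all, against 22). Outside P5 Vangl2 the replicate numbers were not taken to pair lungs. In P2 Ror2 same-numbered lungs correlated at 0.0346, 0.206 and 0.119 and had the same sex by Xist, and pairing there was not tested further. The correlations were -0.00999, 0.0399 and 0.0895 in P2 Vangl2 and 0.0432, -0.0486 and -0.0872 in P5 Ror2. Genes called over the whole table were 1998 (Vangl2) and 788 (Ror2) with DESeq2 at P2. In P2 Vangl2, P5 Vangl2, P2 Ror2 and P5 Ror2 they were 1034, 1834, 3 and 96 in the fit of 24 lungs and 795, 1558, 1 and 1 with the block. In P5 Vangl2 they were 22 with sex as a covariate, 193 scaled to reads on genes and 116 with the stricter filter. The cause of these shifts was not tested.

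The log2 fold change of Cyp4b1 in P5 Vangl2 was -0.17 with sex as a covariate, which there sets aside mutant replicate 1, and ran from -0.17 to 0.35 with 1 lung left out, and that of Gsta4 in P2 Ror2 ran from -0.093 to 0.30. The difference of Cyp4b1 between genotypes at P2 was 0.0068 when scaled to reads on genes. With 1 lung left out, differences that turned direction were, for Ror2 minus Vangl2 at P2, Cyp2a5 (-1.02 to 1.09), Cyp2f2 (-0.25 to 0.24), Cyp2s1 (-0.29 to 0.066), Cyp4b1 (-0.37 to 0.30), Fmo2 (-0.94 to 0.19) and Scgb1a1 (-0.27 to 0.19). At P5 they were Cyp2a5 (-1.28 to 0.30), Fmo2 (-0.79 to 0.16), Scgb1a1 (-0.22 to 0.27) and Scgb3a2 (-0.65 to 0.20). Between ages they were, in Ror2 mutants, Cyp2a5 (-0.36 to 1.76), Cyp4b1 (-0.22 to 0.34) and Fmo2 (-0.93 to 0.037), and in Vangl2 mutants, Fmo2 (-1.08 to 0.050) and Inmt (-1.75 to 0.18). No difference passed under any alternative. Count tests were not run for the P5 tables, nor sex as a covariate in P5 Ror2, where the sex of 1 control could not be called. By Xist, control replicate 2 there was female, control replicate 3 was male and every mutant was male, so sex was unbalanced between the arms. In P2 Vangl2, control replicate 1 and mutant replicates 2 and 3 were female and the other lungs male.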
